A study of Rattus norvegicus with 14 samples.

Results

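The NMDA receptor subunits are the products of the Grin genes, and 6 of them (Grin1, Grin2a, Grin2b, Grin2c, Grin2d and Grin3a) are described here in RNA of hippocampal field CA3. The members were chosen by gene: every probe set of the array whose platform annotation names 1 of these genes alone was taken, dim ones included. That gave 9 probe sets for the 6 genes, out of 12783 probe sets that name 1 of 10411 genes on the array. Within these genes the choice of probe sets used no measured value, but the genes themselves were chosen with earlier results of these data known.

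NMDA receptors are glutamate-gated cation channels. Each holds the obligatory GluN1 subunit (Grin1), which binds glycine or D-serine, together with GluN2 subunits (Grin2a to Grin2d), which bind glutamate, or GluN3 subunits (such as Grin3a). The channel opens when transmitter arrives at an already depolarized membrane, and the calcium that enters activates kinases and phosphatases of the postsynapse. The GluN2 subunit sets the kinetics and the signalling of the receptor: GluN2A gives fast currents and predominates at mature forebrain synapses, GluN2B predominates early in development, GluN2C is best known from cerebellar granule cells and is also made by astrocytes, and GluN2D from early development and interneurons. In CA3, plasticity of the recurrent synapses between pyramidal cells depends on NMDA receptors, and the receptor there is known for its part in the rapid acquisition of new places.

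The animals were 14 male Long-Evans rats of 3 to 4 months, individually housed, 7 in each group, with 1 array per animal. All had been trained in a standard water maze 2 to 3 weeks earlier, and all were then given 8 trials, 8 min apart, in a new water maze. For the learning group this maze had orienting cues and a visible platform in a fixed place. For the control group the visible platform changed place between trials and informative cues were missing, so the groups differed in cues and platform movement together, which cannot be told apart. A probe trial of 90 s without the platform followed 1 h after training in both groups, and CA3 was dissected immediately afterwards. The comparison of learning with control addresses whether rapid encoding of a place alters CA3 transcripts. Values are log2 expression levels, each probe set measuring a stretch of a transcript, and learning minus control differences are on the same log2 scale.

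A few facts of the arrays touch all results. Between arrays, correlations over the 9520 probe sets tested ran from 0.983 to 0.995. Of the CA3 pyramidal markers, 3 of 9 were on the array, and all were above the dim cutoff, namely Bok (8.85), Grik4 (7.95) and Spock1 (7.55), of which Spock1 was called higher in learning arrays (0.28, limma adjusted p = 0.0257). Some markers of neighbouring fields were above the cutoff too, among them Wfs1 of CA1 (8.74), Pcp4 of CA2 (10.48) and Stxbp6 of dentate granule cells (8.34). Of those on the array, 6 of 7 CA1, 4 of 5 CA2 and 3 of 7 dentate markers were above it. Dim were Spink8 of CA1, Cacng5 of CA2, and Dsp, Trpc6, Tdo2 and Pdzd2 of dentate granule cells. So the tissue probably held more than CA3 pyramidal cells, though the share of each field was not tested. The mean of 4 tested choroid plexus markers was lower in learning arrays by 0.70 (two-sided exact permutation p = 0.00117, adjusted over 17 array measures p = 0.00995), the sum of these markers running from 9.38 to 10.37 in control and from 9.08 to 9.44 in learning arrays, with Kl, Folr1, Cldn2 and Prlr dim in both. Of the 4, Ttr was called (-2.09, limma adjusted p = 0.0124), while Igfbp2 (-0.70, adjusted p = 0.237), Enpp2 (-0.03) and Kcne2 (0.01) were not. Spike-in probe sets were brighter in learning arrays by 0.20 (exact permutation p = 0.00524, adjusted p = 0.0297). The log2 3'/5' ratio of Gapdh, a measure of RNA integrity, averaged 0.51 in control and 0.45 in learning arrays (exact permutation p = 0.0443, adjusted p = 0.0941). For actin the means were 1.36 and 1.31 (adjusted p = 0.559), and for hexokinase 1.53 and 1.30 (adjusted p = 0.367). The other 10 marker lists had adjusted p-values from 0.0821 to 0.854. In whole tissue, fewer cells of a type and less RNA per cell cannot be told apart.

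Among the NMDA receptor genes, a single probe set of Grin2a was called, and it was higher in every learning animal than in any control animal. The other Grin2a probe set was 0.23 higher in mean and did not pass (limma adjusted p = 0.102). Signals of the obligatory Grin1 and of Grin2c were far above the dim cutoff and did not pass the test. Grin2b, Grin2d and Grin3a gave dim signals throughout. Here 4 probe sets of 3 genes (Grin1, Grin2a and Grin2c) had a mean at or above the dim cutoff of 3.88, which is the 40th percentile of all probe sets, and the other 5 lay below it with means from 1.82 to 3.54. Of the 4 tested, 1 was called higher at an adjusted p under 0.05 in limma and 3 were not called. Of all 9520 tested probe sets, 2.55% were called higher and 0.798% lower, which makes 3.35% called in either direction. The median change of the 4 was 0.11, beside -0.02 over all tested probe sets. The plot of levels by array shows the 9 probe sets side by side.

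**Figure D1:**
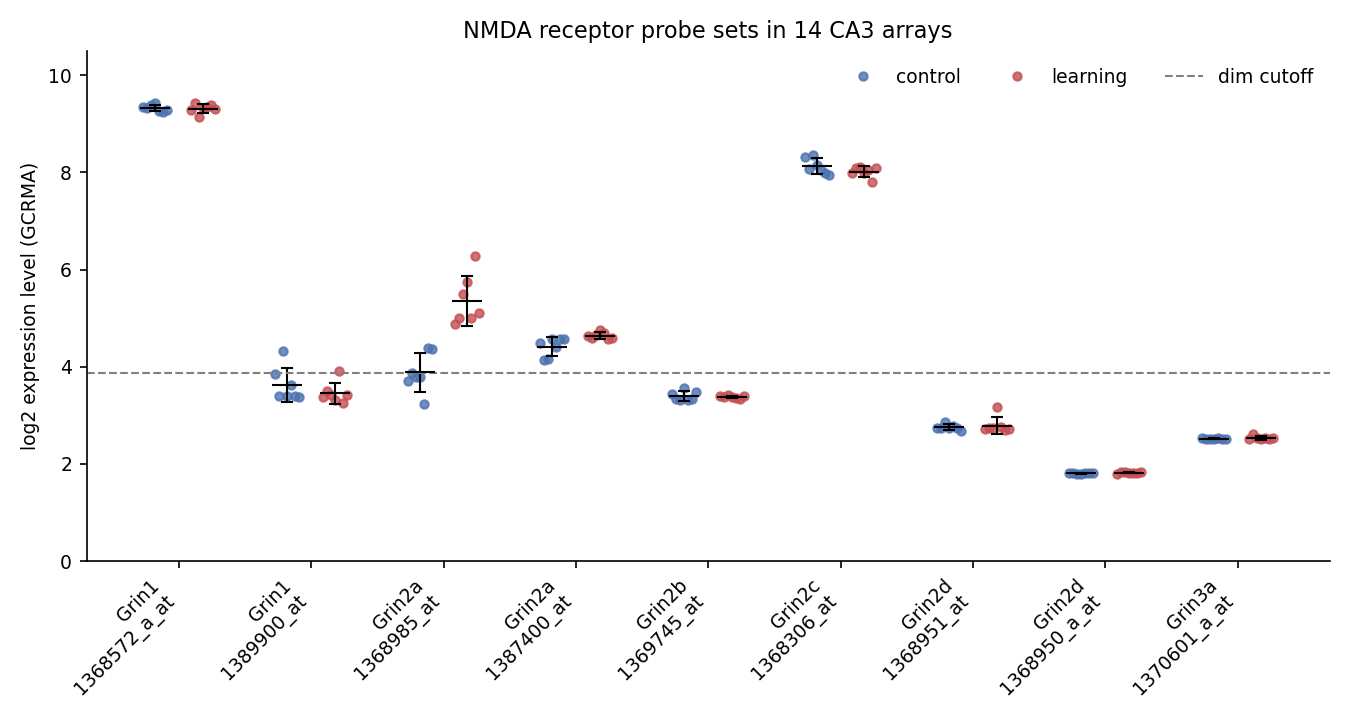
Log2 expression level (vertical axis) of the 9 NMDA receptor probe sets in each of 7 control (blue) and 7 learning (red) arrays, with mean and SD in black and the dim cutoff of 3.88 as a dashed line. The groups are apart at Grin2a 1368985_at alone, where control arrays straddle the cutoff, and 5 probe sets have means under it in both groups.

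Grin1 encodes GluN1, which every NMDA receptor contains. Its bright probe set, 1368572_a_at, ran from 9.24 to 9.42 in control arrays with a median of 9.32. In learning arrays it ran from 9.13 to 9.42 with a median of 9.33. The groups overlapped almost wholly, and both the lowest and the highest of the 14 values came from learning animals (replicates 3 and 2). Means were 9.32 ± 0.07 (SD, n = 7) in control and 9.31 ± 0.09 in learning arrays. The difference was -0.0082 (SE 0.05, limma adjusted p = 0.943), with a 95% interval of -0.10 to 0.09. It is among the steadiest members: its SD within groups of 0.0807 was below the median of 0.111 over the tested probe sets.

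The other Grin1 probe set, 1389900_at, was dim and more variable. It had a median of 3.40 in control arrays, from 3.37 to 4.33, and a median of 3.41 in learning arrays, from 3.25 to 3.91. Control replicates 3 (4.33) and 1 (3.86) and learning replicate 5 (3.91) stood above the rest, and the groups overlapped. The means differed by -0.17 (95% interval -0.50 to 0.16), which the medians did not show. It was -0.05 without control replicate 3 and turned to 0.07 without control replicates 1, 3 and 5. Per array, the difference between the bright and the dim Grin1 probe set changed by 0.16 between the groups (two-sided exact permutation p = 0.331, adjusted over 3 pairs p = 0.497).

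Grin2a encodes GluN2A and has 2 probe sets on the array, both designed from the same sequence record. At 1368985_at the control arrays ran from 3.24 (replicate 5) to 4.39 (replicate 6), with a median of 3.80. The learning arrays ran from 4.87 (replicate 1) to 6.27 (replicate 6), with a median of 5.11. The groups did not overlap, the lowest learning array lying 0.48 above the highest control array. Groups did not overlap in 2.1% of all tested probe sets.

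Mean levels at that probe set were 3.88 ± 0.40 (SD, n = 7) in control and 5.36 ± 0.51 in learning arrays. The rise of 1.47 (SE 0.22, 95% interval 1.003 to 1.94) corresponds to 2.78-fold, with a limma adjusted p of 0.00323. It ranked first by log2 fold change among the 9520 tested probe sets, of which 14 differed upward by at least 1. Its spread within groups was also wide, with an SD of 0.458 at the 98.8th percentile of tested probe sets. Among the tested probe sets, 367 others had a control mean within 0.25 of it. Of these 3 were called (0.817%), all higher, with a median change of 0.0094 and a highest of 1.13. The dim filter tilts this set upward. A probe set with a control mean under the cutoff was tested only if its learning mean lay above the cutoff. Counting also the dim ones, 758 others had such a control mean, with a median change of 0.0015, and 1 of them differed upward by at least 1.

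The background limits how the size can be read. In 4 of 7 control arrays Grin2a 1368985_at lay under the dim cutoff, and in none of the 7 learning arrays. The control mean was only 0.0048 above that cutoff. Signal and background cannot be separated there, and GCRMA compresses differences near background, so 2.78-fold is a rough size.

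At the other Grin2a probe set, 1387400_at, the change was smaller. The control arrays there ran from 4.13 (replicate 2) to 4.58 (replicate 4) with a median of 4.48. In learning arrays the values were tighter, from 4.57 (replicate 6) to 4.75 (replicate 4), with a median of 4.64. All 7 learning animals lay above the control mean and 6 above the highest control, so the groups overlapped by a single array. Means of 4.42 ± 0.19 and 4.64 ± 0.06 (SD, n = 7 each) gave a difference of 0.23 (SE 0.07, 95% interval 0.07 to 0.38), which did not pass (limma adjusted p = 0.102).

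The 2 Grin2a probe sets differed in their change. The first minus the second was -0.53 ± 0.38 (SD, n = 7) in control arrays, from -1.16 to -0.19, and 0.71 ± 0.52 in learning arrays, from 0.23 to 1.70. This difference between probe sets therefore lay below 0 in every control and above 0 in every learning array. It changed by 1.25 (two-sided exact permutation p = 5.83e-04, the smallest that reassigning 14 arrays can give, adjusted over 3 pairs p = 0.00175). Learning replicate 6 was the highest of its group at the first probe set and the lowest at the second, where learning arrays ran only from 4.57 to 4.75. Control replicate 6 was the highest of its group at the first (4.39) and near the top at the second (4.58). The probe sequences were not used here, so it cannot be said which stretch of the transcript each reads.

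**Figure D2:**
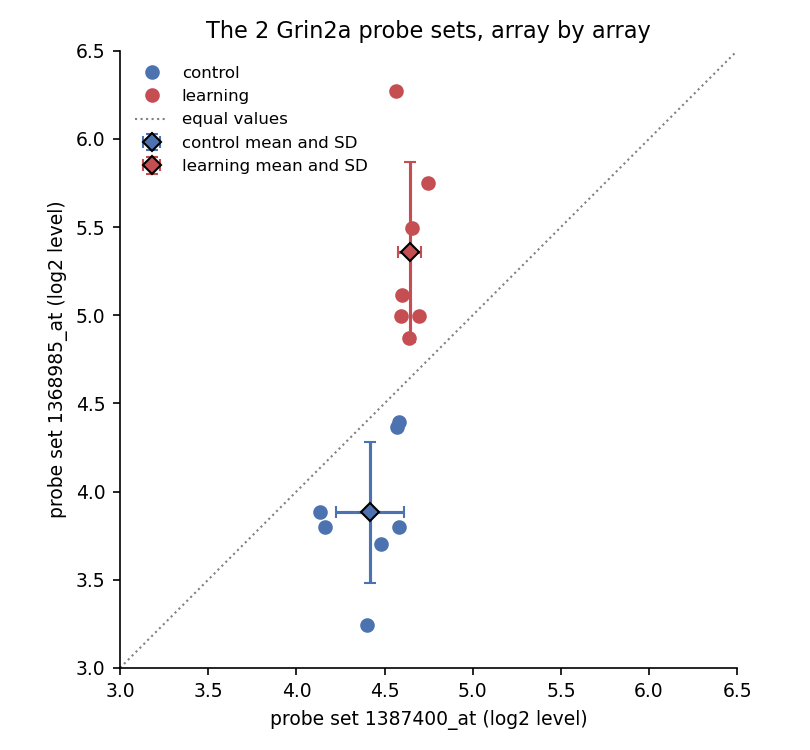
Log2 level of Grin2a at probe set 1387400_at (horizontal axis) against 1368985_at (vertical axis) for each array, with group means and SD as diamonds and equal values as a dotted line. Control arrays lie under the line and learning arrays above it, with a spread of 4.13 to 4.75 across and 3.24 to 6.27 upward.

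A measure of the arrays moved with the called Grin2a probe set. The probe set balance is the mean, over 350 other genes, of the dimmest minus the brightest tested probe set of a gene whose probe sets lie at least 2 log2 units apart. It ran from -3.65 to -3.34 in control and from -3.30 to -3.20 in learning arrays, so it did not overlap either (difference 0.17, exact permutation p = 5.83e-04, adjusted p = 0.00991). Control replicate 5 had the lowest balance and the lowest Grin2a 1368985_at level of all 14 arrays, and learning replicate 6 the highest of both. Control replicate 5 also had the highest log2 3'/5' ratios of all arrays, at 0.64 for Gapdh, 1.65 for actin and 2.57 for hexokinase. Its mean correlation with its own group was the lowest (0.9904). The part of RNA integrity in the relation of Grin2a with the balance was not tested.

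Inside each group the called Grin2a probe set also followed the balance, though the adjusted rank correlation of the control arrays did not pass. Within the 7 control arrays Grin2a 1368985_at followed the balance with Pearson r = 0.81 (exact permutation p = 0.00774, adjusted over 4 relations p = 0.0155) and Spearman rho = 0.786 (exact permutation p = 0.048, adjusted p = 0.096). Within the 7 learning arrays r was 0.887 (exact permutation p = 0.00675, adjusted p = 0.0155) and rho 0.929 (exact permutation p = 0.00675, adjusted p = 0.027). Without the 2 arrays farthest from the median balance, r was 0.731 in control and 0.829 in learning arrays. For Grin2a 1387400_at r was 0.284 in control (exact permutation p = 0.602, adjusted p = 0.802; rho 0.714, exact permutation p = 0.0881, adjusted p = 0.117) and -0.11 in learning arrays (exact permutation p = 0.814, adjusted p = 0.814; rho -0.214, exact permutation p = 0.662, adjusted p = 0.662). Leaving out the 2 farthest arrays moved these to 0.859 and 0.315. These relations were computed after the levels had been seen.

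With the balance as a covariate the change at Grin2a 1368985_at was 0.82 (SE 0.25, limma adjusted p = 0.420), no longer called. The balance differs between the groups, and its part in the Grin2a result was not tested further. The change was 1.25 without control replicates 1, 3 and 5, which correlated least with their group (adjusted p = 0.0477), and 1.35 after adjusting for the 3'/5' ratio of Gapdh, a measure of RNA integrity (adjusted p = 0.0475).

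**Figure D3:**
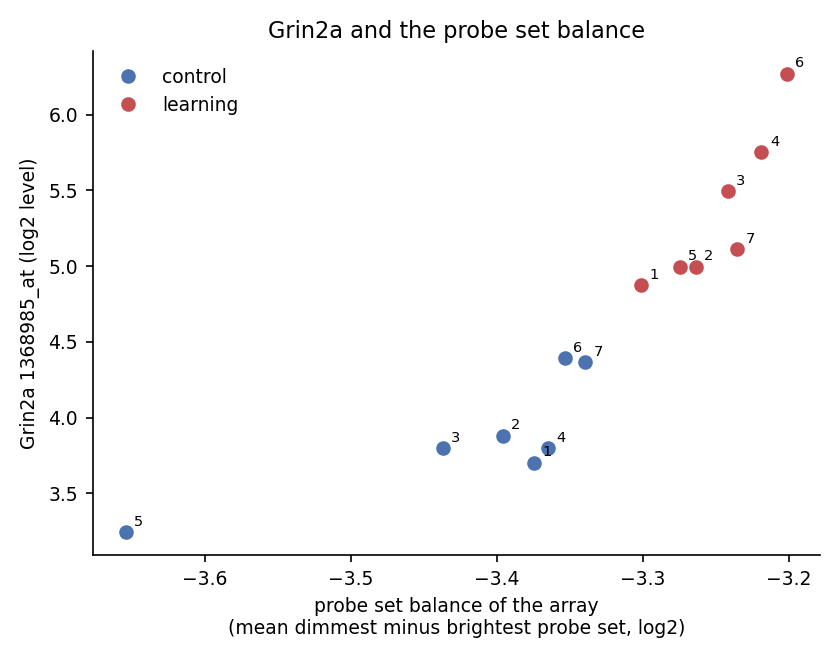
Probe set balance of each array (horizontal axis, log2) against its Grin2a 1368985_at level (vertical axis, log2), with replicate numbers beside the points. Control arrays (blue) run from -3.65 to -3.34 and learning arrays (red) from -3.30 to -3.20, and Grin2a is higher in arrays of higher balance within each group.

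Grin2c encodes GluN2C. Its probe set 1368306_at had a median of 8.07 in control arrays, from 7.94 (replicate 7) to 8.36 (replicate 3). In learning arrays the median was 8.04, from 7.80 (replicate 6) to 8.10 (replicate 3). All 7 learning values lay below the control mean, but 6 of them lay inside the control range. Means were 8.12 ± 0.16 (SD, n = 7) in control and 8.01 ± 0.11 in learning arrays, a difference of -0.11 (SE 0.07, 95% interval -0.26 to 0.04, limma adjusted p = 0.396). It was -0.07 without control replicate 3 and -0.02 without control replicates 1, 3 and 5. The cerebellar granule markers Gabra6 (1.51), Cbln1 (2.42) and Zic1 (2.24) were dim, while Neurod1, which dentate granule cells also express, was at 6.09. So 3 of the 4 measured cerebellar granule markers were dim, while astrocyte markers were bright, among them S100b (12.80) and Gja1 (12.45). Which cells gave the Grin2c signal was not tested.

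The called Grin2a probe set changed differently from the tested probe sets of Grin1 and Grin2c. Relative to Grin1 1368572_a_at, the called Grin2a probe set shifted by 1.48 between the groups, from -5.44 ± 0.42 (SD, n = 7) in control to -3.96 ± 0.52 in learning arrays. Relative to Grin2c 1368306_at it shifted by 1.59, from -4.24 ± 0.49 to -2.66 ± 0.59. Each shift had a two-sided exact permutation p of 5.83e-04 (adjusted over these 2 pairs p = 5.83e-04), and the groups overlapped in neither. These are shifts between groups, and the ratio of subunit transcripts cannot be read from them, since probe sets differ in affinity. The other Grin2a probe set, 1387400_at, was not compared in this way. Over all arrays 1368985_at was the brighter of the pair (4.62 against 4.53), but in control arrays it was the dimmer (3.88 against 4.42). Its groups did not overlap while Grin1 and Grin2c differed little, so these tests add little to its own call.

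Grin2b, Grin2d and Grin3a were dim in all 14 arrays. Grin2b encodes GluN2B, the other main GluN2 subunit of the forebrain. Its only probe set, 1369745_at, ran from 3.32 to 3.56 with a median of 3.35 in control arrays and from 3.34 to 3.41 with a median of 3.38 in learning arrays. All learning values lay inside the control range, and the difference was -0.02 (95% interval -0.10 to 0.06). At this signal the probe set gives no level for GluN2B, and its constancy does not show that the transcript was steady.

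For Grin2d, probe set 1368951_at had a median of 2.74 in control arrays (2.68 to 2.87) and of 2.73 in learning arrays (2.70 to 3.17). Learning replicate 4, at 3.17, stood apart from the other 6, which reached 2.76. Probe set 1368950_a_at lay between 1.797 and 1.838 in all arrays, at the 2.86th percentile of brightness. Their changes of 0.03 and 0.0086 did not differ detectably from each other (exact permutation p = 0.918, adjusted over 3 pairs p = 0.918). Grin3a, whose GluN3A subunit binds glycine and lowers the calcium permeability of the receptor, had medians of 2.52 in control (2.51 to 2.53) and 2.53 in learning arrays (2.51 to 2.62), with a difference of 0.02 (95% interval -0.02 to 0.05). None of the 5 dim probe sets was called when all 15866 probe sets were tested without a filter (limma, 0 of 5 also at an unadjusted p under 0.05), where 0.996% of all probe sets were called.

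**Figure D4:**
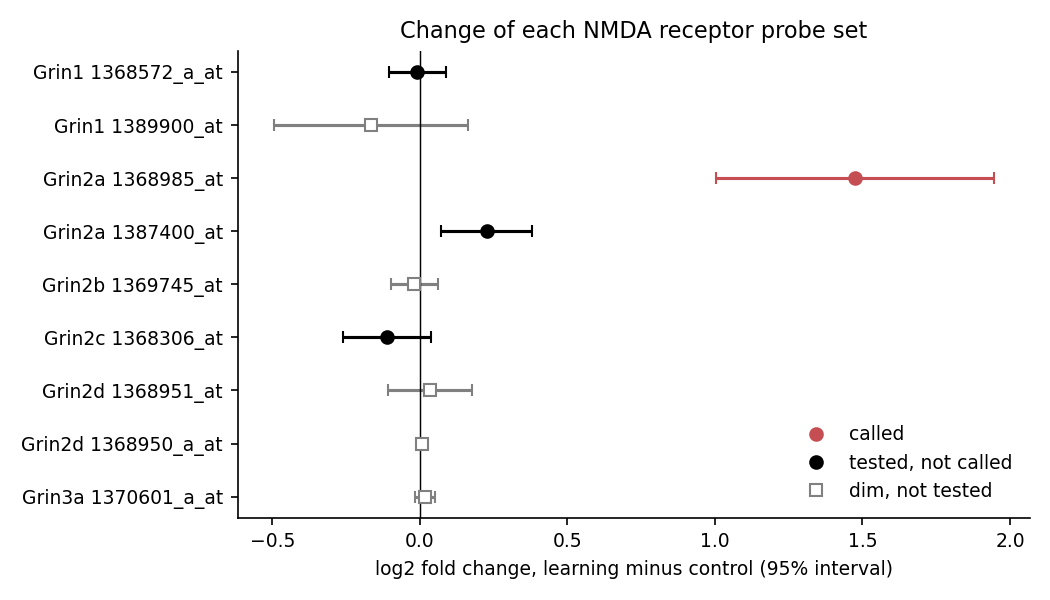
Learning minus control log2 fold change (horizontal axis) of the 9 NMDA receptor probe sets with 95% intervals from limma, the called one in red, other tested ones in black and dim ones as open grey squares. Grin2a 1368985_at lies at 1.47 and its other probe set at 0.23, while all others have intervals that include 0.

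Genes with the most similar deviations from array to array were sought for the brightest tested probe set of Grin1, Grin2a and Grin2c. Likeness is the root mean square difference of within-group deviations over the 14 arrays, each probe set scaled to an SD of 1, so that smaller is more alike. For Grin2a 1368985_at the nearest of 9519 probe sets were those of Nfix (0.399), a transcription factor, Gnao1 (0.419), a neuronal G protein subunit, and Prkca (0.441), protein kinase C alpha, against a median of 1.34. In the comparison of learning with control, where 2.55% of tested probe sets were called higher, the differences of these 3 were 0.70 (limma adjusted p = 0.0388), 0.54 (adjusted p = 0.0166) and 0.72 (adjusted p = 0.0209). With the probe set balance as covariate that of Prkca was 0.33 (adjusted p = 0.637). The other Grin2a probe set had rank 2591 of 9519 at 1.18, nearer than the median but not among the nearest.

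For Grin1 the nearest genes were Shmt2 (0.50), which makes glycine from serine in mitochondria, Psmd11 (0.513), a proteasome subunit, and Kcnk1 (0.538), a potassium channel. For Grin2c they were Usp28 (0.425), Inpp4a (0.462) and Tkt (0.467). None of these 6 was called. Grin1 and Grin2c lay 1.17 from each other, nearer than the medians of 1.30 and 1.32. The called Grin2a probe set lay 1.35 from Grin1 and 1.63 from Grin2c, beyond its median of 1.34. Arrays share tissue dissection and hybridization, which such likeness includes.

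Other ionotropic glutamate receptors gave a mixed picture beside the NMDA receptor genes. Of 4 AMPA receptor genes 3 were tested, and Gria1 rose at its brightest probe set, from 9.21 ± 0.17 to 9.88 ± 0.19 (0.66, SE 0.09, limma adjusted p = 0.00323). Gria2, at 11.44, differed by 0.08 (adjusted p = 0.507). At a dimmer probe set Gria3 rose by 1.19 (adjusted p = 0.00248), and it differed by 0.05 at its brighter one (adjusted p = 0.646). The calls of Gria1 and of Gria3 both ended with the probe set balance as covariate (0.58 and 0.85, limma adjusted p = 0.273 each). Of 5 kainate receptor genes 3 were tested and 0 called (limma, 0 at an unadjusted p under 0.05), the brightest being Grik4 (-0.02) and Grik5 (-0.04). Over all genes by their brightest probe set, 2.57% were called and 18.6% had an unadjusted p under 0.05. Differences between these families and the NMDA receptor genes were not tested.

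Genes that supply, anchor, regulate or read out the receptor were taken from 5 lists holding 93 genes. By their brightest probe set 67 were tested, 3 were called higher and 0 lower, and 64 were not called, that is 4.48% called beside 2.57% of all 6836 genes so measured. Their median change was 0.0089, beside -0.03 over all genes, and 37 of 67 (55.2%) lay above 0, beside 36.1% of all genes. At an unadjusted p under 0.05 were 21 of the 67, beside 18.6% of all genes. A further 4 genes were called higher at a dimmer probe set only. With the probe set balance, the dentate marker level or the spike-in level as covariate, or without control replicates 1, 3 and 5, 0 of the 67 were called in limma (8, 16, 16 and 18 at an unadjusted p under 0.05). Under these settings calls were few everywhere, at 0, 99, 143 and 66 of all 9520 probe sets (853, 1470, 1585 and 1366 at an unadjusted p under 0.05).

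Co-agonist and glutamate handling covers enzymes and transporters of serine, glycine and glutamate. Of 14 genes 10 were tested and 0 were called at their brightest probe set, beside 2.57% of all genes (2 at an unadjusted p under 0.05, beside 18.6%). The glycine transporter Slc6a9 differed by -0.27 (limma adjusted p = 0.290), and the serine synthesis enzyme Psat1 by -0.18 (adjusted p = 0.116). The brightest were Glul, the glutamine synthetase of astrocytes (-0.02), and the astrocytic glutamate transporter Slc1a3 (-0.06), which rose by 0.41 at a dimmer probe set (adjusted p = 0.0381). That call was lost in 19 of 29 alternatives, and the value was 0.08 with the probe set balance as covariate (adjusted p = 0.860).

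Among 21 genes of anchoring and scaffolds 16 were tested. Nefl, the light neurofilament protein, which binds GluN1, rose by 0.24 (12.01 ± 0.12 to 12.24 ± 0.08, limma adjusted p = 0.0333) and by 0.18 at its other probe set (adjusted p = 0.0395). The first of these calls was lost in 15 of 29 alternatives. The other 15 did not pass at their brightest probe set. They include Dlg4, which encodes PSD-95, the scaffold that binds the tails of GluN2 subunits (0.16, adjusted p = 0.480), Dlg3 (0.0089), Shank3 (0.05) and Grina (0.07). Homer1 rose by 0.67 at 1 of its 5 tested probe sets, 1370656_a_at (adjusted p = 0.00593), and differed by 0.11 at its brightest (adjusted p = 0.339). Adjusted for the probe set balance, 1370656_a_at was at 0.34 and not called (adjusted p = 0.500).

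Of 21 kinases and phosphatases that act on the receptor, 20 were tested and 2 were called higher at their brightest probe set, beside 1.59% of all genes. Camk2a, the calcium-dependent kinase that docks on GluN2B, rose by 0.76, from 9.41 ± 0.35 to 10.17 ± 0.26 (limma adjusted p = 0.0150). Of its dimmer probe sets, 1368935_at rose by 0.54 (adjusted p = 0.0381) and 1389824_at differed by 0.04 (adjusted p = 0.953). Prkca rose by 0.72 (6.66 ± 0.28 to 7.38 ± 0.34, adjusted p = 0.0209). The calcineurin genes Ppp3cb (0.41, adjusted p = 0.00581) and Ppp3r1 (0.74, adjusted p = 0.0423) were called at dimmer probe sets, and at their brightest they differed by 0.06 and 0.08. With the probe set balance as covariate Ppp3cb was at 0.29 (adjusted p = 0.436) and Ppp3r1 turned to -0.03 (adjusted p = 0.922). Besides that one, the Ppp3r1 call was lost in 16 others of the 29 alternatives. The call of Camk2a also ended with that covariate (0.81, adjusted p = 0.398). Ppp3ca, the catalytic calcineurin subunit gene with the brightest probe set of this list, was 0.07 higher in mean (adjusted p = 0.249). The tyrosine kinases Src (0.04) and Fyn (0.23, adjusted p = 0.0904) and the phosphatase Ptpn5 (-0.08), which act on tyrosines of GluN2 subunits, did not pass.

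Calcium signalling downstream of the receptor had 11 of 22 genes tested and 0 called in limma, beside 2.57% of all genes. At an unadjusted p under 0.05 were 5 of the 11, beside 18.6% of all genes. The median change was 0.11, beside -0.03 over all genes, and 9 of 11 lay above 0, beside 36.1% of all genes. The closest to the threshold were Rasgrf2 (0.64, adjusted p = 0.0557), an exchange factor for Ras, Kalrn (0.51, adjusted p = 0.0680) and Camk4 (0.78, adjusted p = 0.0710). The brightest, Calm2 (0.11, adjusted p = 0.0941) and Nsmf (-0.0052), were not called.

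Activity-dependent transcripts, many of them induced by calcium entry through NMDA receptors, were mostly lower in mean in learning arrays, as were most genes measured. Of 16 genes 11 were tested and 0 called at their brightest probe set, beside 2.57% of all genes (3 at an unadjusted p under 0.05, beside 18.6%). Their median was -0.12, and 3 of 11 lay above 0, beside 36.1% of all genes. Fos (-0.20, limma adjusted p = 0.451), Junb (-0.21, adjusted p = 0.157) and Egr1 (-0.08) were lower in mean, Arc (0.03) was nearly level, and Bdnf was 0.25 higher in mean (adjusted p = 0.296). Homer1 belongs to this list too and was 0.11 higher in mean at its brightest probe set (adjusted p = 0.339), while its dimmer 1370656_a_at was called. Both groups swam and had the same probe trial before the tissue was taken.

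**Figure D5:**
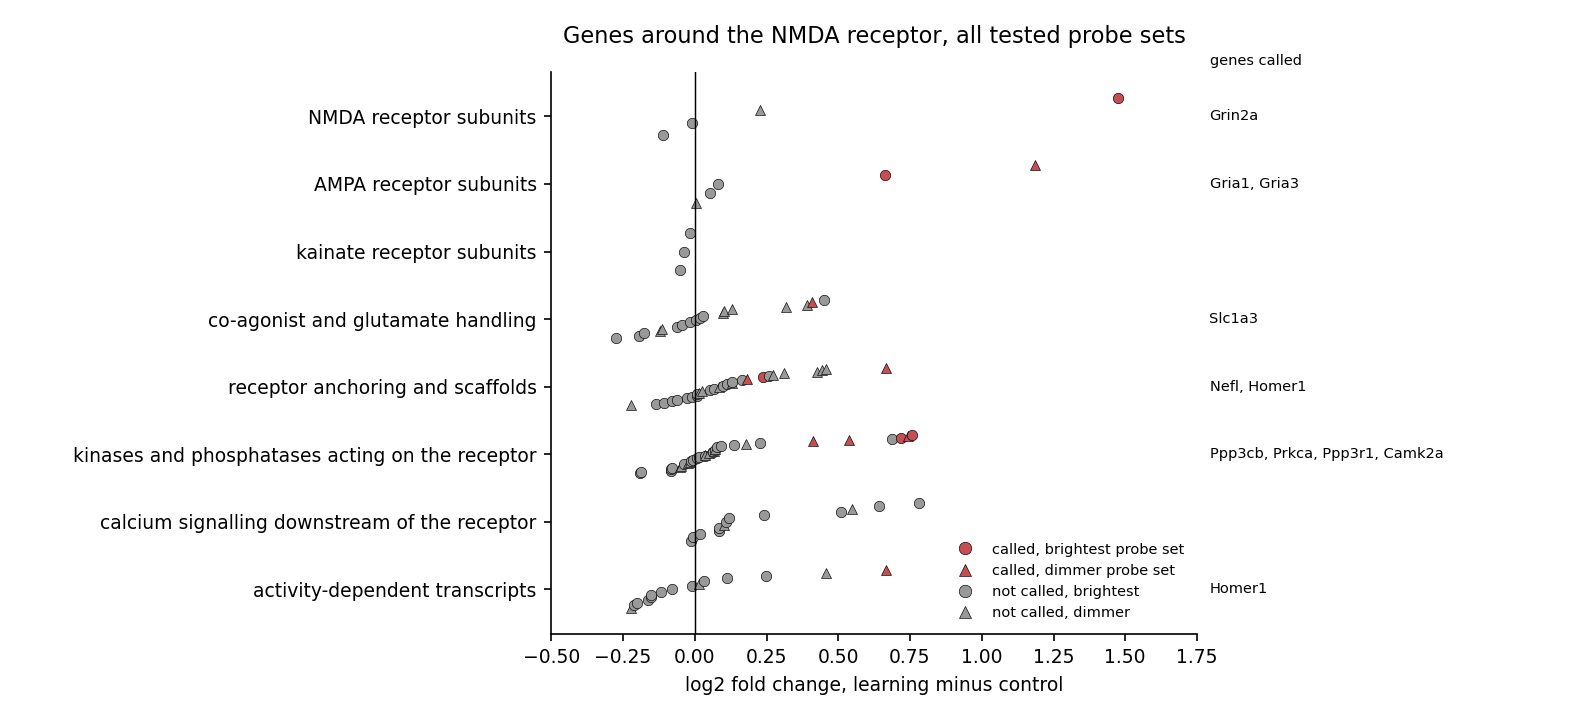
Learning minus control log2 fold change (horizontal axis) of every tested probe set of the NMDA, AMPA and kainate receptor genes and of 5 lists of genes around the receptor, circles for a gene's brightest probe set and triangles for dimmer ones, with called ones in red and their genes named at the right. Grin2a has the largest change of those drawn at 1.47, and the called probe sets all lie above 0.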

How the data were processed

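The authors deposited log2 expression levels made with GCRMA from Affymetrix RAE230A arrays, per the submitters' processing notes and the labels' protocols. Its version, settings and scale are not stated in those sources, and log2 was taken from the range of the values (column medians 5.07 to 5.09). Genes come from the platform annotation, with symbols updated through Entrez IDs where 12748 of 12783 single-gene probe sets matched RefSeq (GRCr8). No build is named for the array, so no coordinates are given.

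Groups and replicate numbers are those of the sample titles, which call the animals biological replicates. Leaving out 57 control probe sets and 6346 with a mean under the 40th percentile (3.88), 9520 were fitted with limma 3.58.1 in R 4.3.3, adjusted by Benjamini-Hochberg and called at an adjusted p under 0.05. "Rose" is used of called probe sets. Single values per array were compared by exact permutation. Error values after ± are SDs over 7 animals. The number of arrays limits precision.

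The members and lists were chosen with earlier results of these data known. Named are all member probe sets, called genes and the 2 brightest of each list, the 3 nearest genes of each tested member, and the brightest markers. Other genes in the text were named after their values were seen. Alternatives were 3 filters, 2 variance moderations, array weights, 2 normalizations, the replicate block, 5 covariates, leaving out 3 arrays together and each array in turn. Same-numbered animals of the groups correlated from -0.156 to 0.128 in their deviations, above 0.1 in 2 of 7 pairs, so the numbers were not used as pairs. The fit was tested on simulated data.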

Additional observations from a re-analysis of the deposited data

Results flagged for a closer look

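In 4 of the 18 groups of 7 values formed by the 9 NMDA receptor probe sets, a single learning array lay far from the other 6, where about 1 group in 20 does so by chance. At the dim Grin1 probe set 1389900_at, learning replicate 5 was at 3.91 while the others ran from 3.25 to 3.51. At Grin2c 1368306_at, learning replicate 6 was at 7.80 and the others from 7.98 to 8.10. At Grin2d 1368951_at, learning replicate 4 was at 3.17 and the others from 2.70 to 2.76. At Grin3a 1370601_a_at, learning replicate 2 was at 2.62 and the others from 2.51 to 2.53. These are 4 different animals, and 3 of the probe sets are dim.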

How the results depend on the processing

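The change at Grin2a 1368985_at kept its direction in all 28 alternatives that gave a value and its call in 27. Its values ran from 0.82 to 1.69, and from 1.32 to 1.56 with each array left out. The call ended with the probe set balance as covariate (0.82, adjusted p = 0.420), and a filter at the 60th percentile removed all Grin2a probe sets, so 0 NMDA receptor probe sets were called in both. Over all genes limma called 319 probe sets, 158 without a filter, 39 with the Gapdh ratio as covariate, 143 with spike-ins, 177 with the hexokinase ratio, 99 with dentate markers, 0 with the balance (853 at an unadjusted p under 0.05) and 66 without 3 arrays. With each array left out it ran from 163 to 352, lowest without control replicates 1 (163), 2 (166) and 3 (167) and learning replicates 4 (164), 6 (171), 3 and 7 (188 each).

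The small difference at Grin1 1368572_a_at changed sign with the dentate level (0.0057) and ran from -0.027 to 0.022 with arrays left out. The difference between the Grin1 probe sets was -0.068 without the 3 arrays, and that between the Grin2d probe sets ran from -0.039 to 0.047 with arrays left out. The count of pathway genes, 3, was 1 without a filter and with the Gapdh ratio, 5 at the 60th percentile, 6 with trended moderation, 6 with the replicate block, and 0 with spike-ins, the balance, dentate markers or without 3 arrays (16, 8, 16 and 18 at an unadjusted p under 0.05 in limma, and 21 in the main setting). These alternatives for pathway genes were chosen after seeing the data. The count ran from 2 to 6 with arrays left out, highest without control replicate 6. Of the other called genes, Slc1a3 lost its call in 19 of 29 alternatives, Nefl in 15, Prkca in 7 and Camk2a in 4. Homer1 and Ppp3cb lost theirs in 3 each, Gria1 in 1 and Gria3 in 1 of its 28. Ppp3r1 1369152_at turned to -0.035 and was not called with the balance, and lost its call in 16 other alternatives. The replicate block changed no call of an NMDA receptor probe set (1 called, and 313 over all genes). The cause of these changes was not tested.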
